A study of Mus musculus with 4 samples.

Results

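Mitochondrial ribosomal protein genes were followed in CD31+CD45- cerebral cells after tamoxifen-driven recombination of Mgp. The members were all genes of the deposited expression table whose symbol is Mrpl or Mrps followed by a number and at most 1 letter, which gave 78 of the 24873 genes listed. RNA-Seq had been performed on 4 libraries, 2 control and 2 tamoxifen, each described in a figure legend of the study as a pool of 3 mice. All mice carried the same alleles, VE-cadherin cre/ERT2 and Mgp fl/fl (Cdh5cre;Mgpflox/flox in the labels), in which a tamoxifen-activated Cre under the VE-cadherin promoter recombines Mgp in endothelial cells (ECs). Control mice had received no tamoxifen, so tamoxifen itself and the loss of Mgp cannot be told apart. Injections of the tamoxifen mice (75 mg/kg per day) began at 10 weeks of age and lasted 5 days, with cells isolated on day 9. The labels call the cells brain tdTomato+, whereas the design text calls them CD31+CD45-. The columns of the table are lettered C and A, which were taken to stand for control and for arteriovenous malformation (AVM), the arm given tamoxifen. The labels themselves contain no A.

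Mitochondria keep their own ribosomes, which translate the few membrane proteins of the respiratory chain that mitochondrial DNA encodes. The RNAs of these ribosomes come from mitochondrial DNA, but every protein of the large subunit (Mrpl) and the small subunit (Mrps) is encoded in the nucleus, translated in the cytosol and imported. Some of these proteins descend from bacterial ribosomal proteins, and others were added in the mitochondrial lineage. Brain ECs carry out energy-demanding barrier transport and are commonly described as rich in mitochondria.

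Mgp, the targeted gene, was listed at 1094 and 1352 normalized counts in control libraries 1 and 2 and at 945 and 909 in tamoxifen libraries 1 and 2. Both tamoxifen values lay below both control values, but the difference did not pass the test (log2 fold change -0.39, SE 0.18, limma adjusted p = 0.0986, n = 2 per group), and the table holds 1 value per gene, so that recombined exons cannot be seen. With library totals made equal its difference was 0.08 (adjusted p = 0.712). Pecam1, which encodes CD31, was at 83681 and 88796 in control and at 15987 and 8973 in tamoxifen libraries, and Cdh5, which encodes VE-cadherin, was at 79151 and 86328 against 15585 and 8508. All 8 endothelial markers fell, with summed levels of 1017633 to 1036876 in control and 94214 to 186039 in tamoxifen libraries. Markers of other cells rose beside them: 7 of 7 neutrophil markers (summed 232 to 297 against 81197 to 108979), 5 of 5 pluripotent cell markers (43.8 to 62.6 against 27353 to 35073), 4 of 4 cycling cell markers (975 to 1125 against 67734 to 69214), 5 of 5 erythroid (17381 to 35081 against 101581 to 158663) and 5 of 5 astrocyte markers (15201 to 24213 against 114811 to 250637). Of the rest, 3 of 4 oligodendrocyte, 3 of 5 microglia and macrophage, 2 of 4 neuron and 0 of 4 pericyte and smooth muscle markers rose, and no marker was at 0 reads in a library. These shifts accompany every result below, and their part in it was not tested. In such libraries, fewer cells of a type and less RNA per cell cannot be told apart. Libraries held 35387438 to 49799321 reads on genes.

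On the deposited scale, fewer mitochondrial ribosomal protein genes passed the test than genes of the table as a whole. Of the 78, 17 rose (21.8%) and 3 fell (3.85%), whereas 33.4% of the 20485 genes tested rose and 25.5% fell. In either direction, 20 members passed (25.6%) against 58.9% of all genes (limma, adjusted p under 0.05). This order of shares turned round when library totals were made equal, with 67.9% of members against 58.5% of all genes. Only 3 members, Mrpl45, Mrps18b and Mrps22, also passed an absolute log2 fold change of 1 (3.85% of members in either direction), against 44.7% of all genes. All 78 members had a mean of at least 10 normalized counts and were tested. Members averaged between 113 and 2537 normalized counts, and 63.3% of the 9165 genes tested in that range passed.

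Individual member differences ran from -0.73 to 1.41 on the log2 scale, with a median of 0.24 (quartiles -0.04 and 0.48). Over all genes tested the median was 0.05 and the quartiles -0.77 and 1.68. A difference within 0.5 of zero was found for 57 members (73.1%), compared with 27.4% of all genes, and within 1 of zero for 75 members (96.2%), compared with 48.5%. Related lists described below were narrow too. Within 1 of zero were 96.3% of ribosome assembly factors, 89.5% of translation factors, 88.2% of aminoacyl-tRNA synthetases and 100% of mitochondrial DNA transcription and replication genes. Within 0.5 were 63%, 68.4%, 58.8% and 70%. Nuclear regulators (63.6% and 36.4%) and cytosolic ribosomal protein genes (57.8% and 13.3%) were less narrow. For 58 members (74.4%) the whole 95% interval of the difference lay within 1 of zero, which held for 23% of all genes. The median standard error was 0.19 for members and 0.23 for genes of the same level range, so that members were measured at least as precisely as those genes. The 2 groups did not overlap for 56 members, 43 with both tamoxifen libraries higher and 13 with both lower (71.8%), against 82.3% of all genes.

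**Figure D1:**
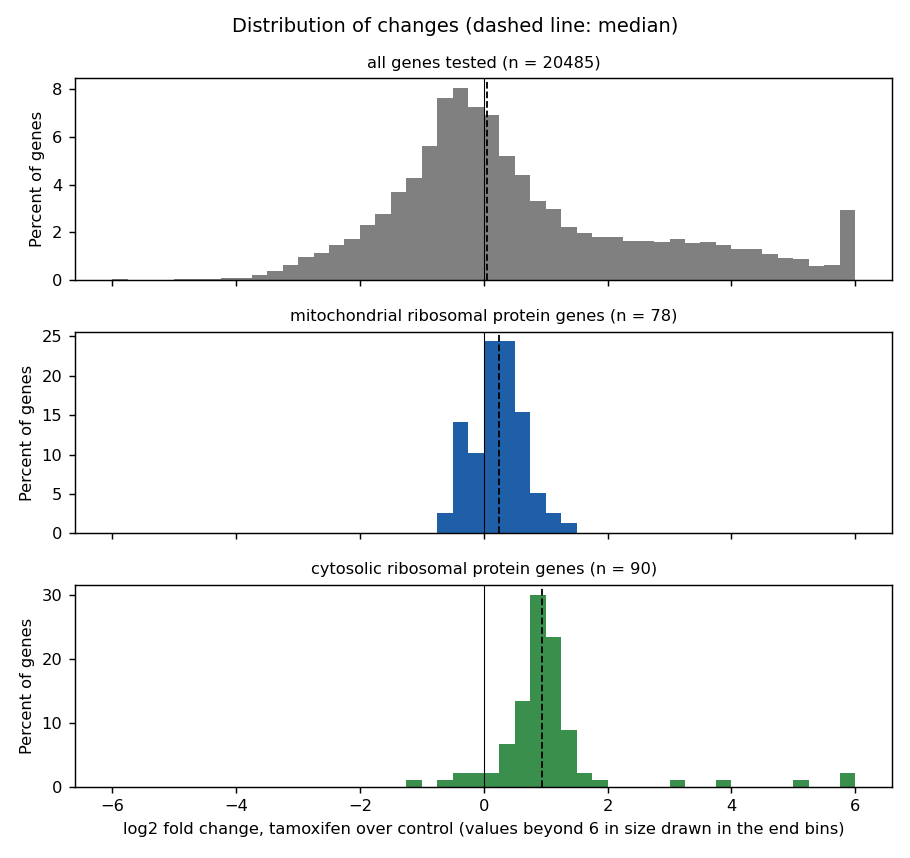
Distribution of log2 fold changes (tamoxifen over control, x axis) as percent of genes (y axis) for all 20485 genes tested, the 78 mitochondrial ribosomal protein genes and the 90 cytosolic ribosomal protein genes, in bins of equal width with the median dashed. All but 3 of the members lie within 1 of zero, in a narrow range around a median of 0.24, whereas the cytosolic genes centre on 0.93.

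**Figure D2:**
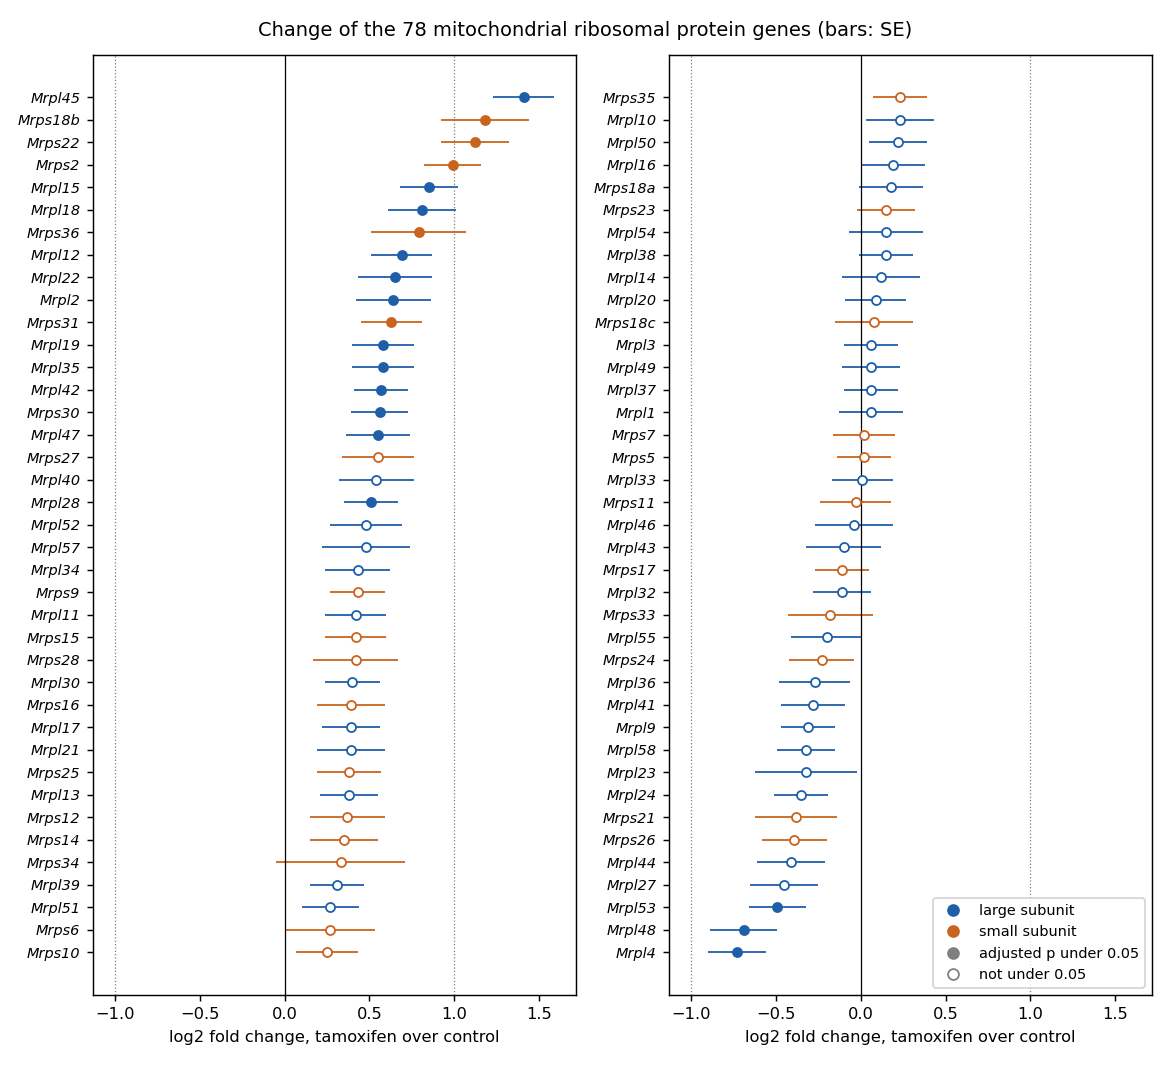
Log2 fold change (x axis) of each of the 78 members, ranked from highest to lowest over both panels, with bars giving the standard error from limma (n = 2 per group). Filled points passed an adjusted p of 0.05, colors give the subunit, and dotted lines mark a log2 fold change of 1 in size. Mrpl45 stands at the top with 1.41 and Mrpl4 at the bottom with -0.73.

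Mrpl45 rose the most. Its product lies at the exit of the large subunit tunnel, where it helps to hold the ribosome at the inner membrane. Normalized counts of Mrpl45 were 833 and 849.8 in control libraries 1 and 2 and 2504 and 2009 in tamoxifen libraries 1 and 2. Control libraries lay close together and both tamoxifen libraries far above them, a 2.66-fold difference (log2 fold change 1.41, SE 0.18, limma adjusted p = 0.00034). Leaving out any 1 library kept the call, with adjusted p up to 0.028. Whenever a library was left out, a smaller share of all genes passed too. A call lost in this way, here and below, need not be particular to a member. Mrpl45 lies on chromosome 11 from 97206542 to 97232865 on the plus strand (GRCm39), with 8 exons in its canonical transcript.

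Mrps18b and Mrps22, both of the small subunit, were next. Mrps18b encodes 1 of 3 mitochondrial relatives of a single bacterial protein, and its normalized counts were 256 and 197 in control and 534 and 488 in tamoxifen libraries. The tamoxifen values did not overlap the control values (2.27-fold, log2 fold change 1.18, SE 0.26, limma adjusted p = 0.00572), but the call was lost without tamoxifen library 1 (adjusted p = 0.102) or tamoxifen library 2 (adjusted p = 0.0902), and under quantile normalization (log2 fold change 0.23, adjusted p = 0.45). Exons of other genes, Ppp1r10 and Gm16279 on the opposite strand, cover 67.5% of its transcript. The libraries were made with a stranded kit, but whether reads were counted by strand was not given in the sources used here. Mrps22 encodes a subunit that bacteria lack, and its normalized counts were 404 and 407 in control and 931 and 841 in tamoxifen libraries. Control libraries were nearly equal, and both tamoxifen libraries were above them (2.18-fold, log2 fold change 1.12, SE 0.20, limma adjusted p = 0.0019). Without tamoxifen library 1 the adjusted p of Mrps22 was 0.0515.

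The promoters of these 3 genes are shown with that of Mrpl4, the member that fell the most, because they stand at both ends of the range. Each run holds 250 bases before and 50 bases from the start of the canonical transcript on, read 5′ to 3′ on the strand of the gene from GRCm39. Capitals mark exact matches, on either strand, to a core of the nuclear respiratory factor 1 motif (GCGCATGC), an ETS motif of the GABP type (CCGGAAGT) or a YY1 motif (AAGATGGC), 3 factors known for control of nuclear genes of mitochondrial function.
Mrpl45, chr11:97206292-97206591, plus strand: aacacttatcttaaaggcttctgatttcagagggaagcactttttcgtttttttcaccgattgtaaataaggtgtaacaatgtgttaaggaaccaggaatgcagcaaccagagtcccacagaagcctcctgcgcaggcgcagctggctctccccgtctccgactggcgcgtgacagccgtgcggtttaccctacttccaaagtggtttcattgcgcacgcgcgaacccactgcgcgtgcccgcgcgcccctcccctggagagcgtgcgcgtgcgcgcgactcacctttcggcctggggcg
Mrps18b, chr17:36227441-36227740, minus strand: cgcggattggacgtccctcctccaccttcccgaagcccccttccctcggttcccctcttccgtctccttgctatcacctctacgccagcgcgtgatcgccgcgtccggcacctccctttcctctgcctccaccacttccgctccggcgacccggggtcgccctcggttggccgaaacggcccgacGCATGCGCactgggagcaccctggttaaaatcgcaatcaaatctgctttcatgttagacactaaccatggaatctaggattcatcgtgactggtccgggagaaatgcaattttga
Mrps22, chr9:98483671-98483970, minus strand: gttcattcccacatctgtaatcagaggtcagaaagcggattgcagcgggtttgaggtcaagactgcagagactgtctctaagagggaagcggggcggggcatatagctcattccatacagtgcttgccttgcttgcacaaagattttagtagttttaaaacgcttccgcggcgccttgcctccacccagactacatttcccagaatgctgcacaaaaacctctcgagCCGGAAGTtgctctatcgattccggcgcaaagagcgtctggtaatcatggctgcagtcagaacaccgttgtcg
Mrpl4, chr9:20913768-20914067, plus strand: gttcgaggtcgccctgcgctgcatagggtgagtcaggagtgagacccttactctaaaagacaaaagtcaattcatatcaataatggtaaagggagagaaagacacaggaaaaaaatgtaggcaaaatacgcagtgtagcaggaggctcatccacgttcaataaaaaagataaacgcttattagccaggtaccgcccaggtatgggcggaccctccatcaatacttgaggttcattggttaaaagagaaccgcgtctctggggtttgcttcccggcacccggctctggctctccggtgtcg
Mrps18b held 1 match to the nuclear respiratory factor 1 core, starting at position -65 from the start, and Mrps22 held 1 ETS match at position -23. The windows of Mrpl45 and Mrpl4 held no exact match to these letters. Looser forms of the motifs were not searched, so a site of these factors may still be present.

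Among all 78 promoters, the nuclear respiratory factor 1 core was found in 7 (8.97%), against 3.69% of the promoters of 21757 protein-coding genes. The ETS letters were found in 11 (14.1% against 4.35%), the YY1 letters in 6 (7.69% against 2.47%), and 56 members held no exact match to any of the 3. An E-box (CACGTG) was found in 5 members (6.41% against 7.82%), an SP1 box (GGGCGG) in 33 (42.3% against 42.5%) and a TATA box (TATAAA) in 8 (10.3% against 13.2%). Matches of different motifs were counted separately, and a promoter could hold several. In the RefSeq promoter set, built on GRCm38.p6 and holding 69 of the members, the shares were 11.6% against 2.80% for nuclear respiratory factor 1, 15.9% against 4% for ETS and 17.4% against 2.88% for YY1. In that set the SP1 box was found in 49.3% against 35.9%, the TATA box in 5.8% against 14.2% and the E-box in 7.25% against 7.24%. Shares thus depended on the promoter set, also for YY1 (7.69% and 17.4% of members). Members with a match lay over the whole range of changes: the ETS letters stood before Mrps22, which rose, and before Mrpl48, which fell.

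**Figure D3:**
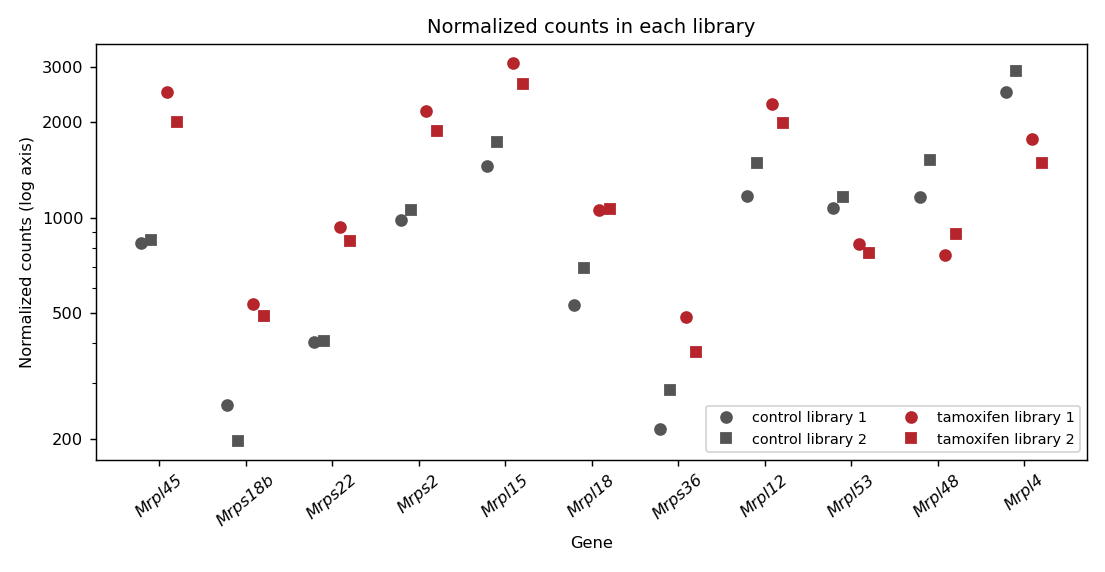
Normalized counts (y axis, log scale) of 8 members that rose and 3 that fell (x axis) in each of the 4 libraries. Points are single libraries, gray for control and red for tamoxifen, with circles for library 1 and squares for library 2. The groups do not overlap for any gene shown, and Mrpl45 shows the widest gap between groups.

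A further 5 members rose by less than 2-fold with a log2 fold change of at least 0.69. Mrps2, a small subunit protein of bacterial descent, was at 981 and 1059 normalized counts in control and at 2171 and 1883 in tamoxifen libraries. The groups lay apart by 1.98-fold (log2 fold change 0.99, SE 0.17, limma adjusted p = 0.00149), and the call was kept whichever library was left out (adjusted p up to 0.0415). Mrpl15, of bacterial descent in the large subunit, was at 1456 and 1731 against 3088 and 2656. It had the highest normalized counts of the members that rose (log2 fold change 0.85, SE 0.17, adjusted p = 0.00352), and missed the threshold without tamoxifen library 1 (0.0691) or 2 (0.0527). Mrpl18, in the central protuberance of the large subunit, was at 529 and 693 against 1059 and 1066. The tamoxifen libraries were nearly equal and the control libraries less so (log2 fold change 0.81, SE 0.20, adjusted p = 0.0103). The call of Mrpl18 was lost without control library 1 (adjusted p = 0.0574), tamoxifen library 1 (0.113) or tamoxifen library 2 (0.121).

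Mrps36 is listed among small subunit genes, but its product is now described as a subunit of the alpha-ketoglutarate dehydrogenase complex. It was at 215 and 285 normalized counts in control and 486 and 377 in tamoxifen libraries. The difference was past the threshold by little (log2 fold change 0.79, SE 0.28, limma adjusted p = 0.0421), and turned to -0.20 (adjusted p = 0.537) under quantile normalization. It was not called without control library 1 (0.167), tamoxifen library 1 (0.268) or tamoxifen library 2 (0.133). Mrpl12, the stalk protein that also binds mitochondrial RNA polymerase, was at 1172 and 1484 against 2280.3 and 1986. Both tamoxifen libraries lay above both control libraries (log2 fold change 0.69, SE 0.18, adjusted p = 0.0127), although without the same 3 libraries in turn the adjusted p was 0.0827, 0.138 and 0.0929. Mrpl10, which anchors Mrpl12 in the stalk, was at 1122 and 1518 against 1633 and 1428, so that the groups overlapped (log2 fold change 0.23, SE 0.20, adjusted p = 0.348).

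The other 9 members that rose did so by 1.42- to 1.56-fold, with adjusted p from 0.0164 to 0.0381. They were Mrpl22 and Mrpl2, which lie by the tunnel and the catalytic centre, with Mrps31, Mrpl19, Mrpl35, Mrpl42, Mrps30, Mrpl47 and Mrpl28. Mrpl22 was at 488 and 647 in control and 944 and 819 in tamoxifen libraries (log2 fold change 0.65, SE 0.22). Mrpl2 was at 945 and 1229 against 1995 and 1419, with the widest gap between tamoxifen libraries among these 9 (log2 fold change 0.64, SE 0.22). Mrpl42 had the highest level of all members per kilobase of transcript and was at 1416 and 1628 against 2344 and 2175 (log2 fold change 0.57, SE 0.16). Mrps30, whose product sits in the large subunit despite its name and has been described in apoptosis, was at 990.3 and 882 against 1382 and 1371 (log2 fold change 0.56, SE 0.17). None of these 9 was called without tamoxifen library 1 (adjusted p 0.104 to 0.283) or without tamoxifen library 2 (0.0724 to 0.148).

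Mrpl4, Mrpl48 and Mrpl53, all of the large subunit, fell. Mrpl4, of bacterial descent with an extension into the exit tunnel, was at 2494 and 2914 normalized counts in control libraries 1 and 2 and 1769.8 and 1487 in tamoxifen libraries 1 and 2. Both tamoxifen libraries were below both control libraries, by 39.8% on the fitted scale (log2 fold change -0.73, SE 0.17, limma adjusted p = 0.00733). Mrpl48 was at 1159 and 1526 against 761 and 887, which was 38.2% lower (log2 fold change -0.69, SE 0.20, adjusted p = 0.0192). Mrpl53 was at 1075 and 1166 against 823 and 774, which was 28.7% lower (log2 fold change -0.49, SE 0.17, adjusted p = 0.0411). These 3 groups of values did not overlap, but without tamoxifen library 2 no fall was called (adjusted p 0.09, 0.111 and 0.136). Mrpl48 also lost its call without control library 2 (0.118) or tamoxifen library 1 (0.172), and Mrpl53 without control library 1 (0.0932), control library 2 (0.179) or tamoxifen library 1 (0.103). Once library totals were made equal, the differences were -0.26, -0.22 and -0.02, and none passed (adjusted p 0.169, 0.381 and 0.925), whereas under quantile normalization all 3 stayed called (-0.69, -0.98 and -0.82). Mrpl4 lies on chromosome 9 from 20914018 to 20920537 on the plus strand, with 9 exons, and Mrpl48 on chromosome 7 from 100194939 to 100257508 on the minus strand, with 8.

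Just below the falls were members that did not pass. Mrpl27, near the catalytic centre, was at 957 and 1247 in control and 864 and 739 in tamoxifen libraries (log2 fold change -0.45, adjusted p = 0.0908). Mrpl44, which has a ribonuclease III-like fold, was at 1031 and 1200.3 against 942 and 742 (-0.41, adjusted p = 0.107). Mrps26 was at 1151 and 1476 against 1043 and 943 (-0.39, adjusted p = 0.108). In these 3 genes the tamoxifen libraries lay below the control libraries with no overlap. Mrps21 was at 1005 and 1502 against 1057 and 839.7, where the groups overlapped (-0.38, adjusted p = 0.196). Mrpl24 (-0.35), Mrpl23 (-0.32) and Mrpl58 (-0.32), a peptidyl-tRNA hydrolase built into the large subunit, and Mrpl41 (-0.28), also described in cell cycle arrest, had adjusted p from 0.0907 to 0.388.

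Some members barely differed between groups on the deposited scale. Mrps5, at 2357 and 2683 normalized counts in control and 2731 and 2375 in tamoxifen libraries, is 1 of the 22 whose groups overlapped (log2 fold change 0.02, 95% interval -0.36 to 0.39). Mrps7 was at 1675 and 2105 against 2081 and 1748 (0.02, interval -0.40 to 0.45), and Mrpl33 at 782 and 844 against 843 and 795 (0.01, interval -0.41 to 0.43). The control and tamoxifen values of these 3 genes, named after their values were seen, interleaved, and differences up to the bounds of these intervals remain possible. With library totals made equal, all 3 were called higher (Mrps5 0.49, Mrps7 0.49 and Mrpl33 0.48, limma adjusted p 0.0216, 0.0399 and 0.0392). Under quantile normalization they were at 0.14, 0.04 and -0.37, and none passed (limma adjusted p 0.391, 0.844 and 0.0871). Mrps12, which encodes the decoding-site protein, was at 552 and 618 against 881 and 646 (0.37, adjusted p = 0.189).

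By subunit, 12 of 51 large subunit genes rose and 3 fell (median log2 fold change 0.19), and 5 of 27 small subunit genes rose and 0 fell (median 0.33). In either direction, 29.4% of large and 18.5% of small subunit genes passed, both below the 58.9% of all genes tested. Mrps30 and Mrps18a were counted with the large subunit, where their proteins sit, and Mrps36 stayed with the small subunit by its symbol. Without Mrps36, 4 of 26 small subunit genes rose (median 0.30). With 1 library left out, the small subunit median stayed above the large subunit median. The values were 0.21 against 0.13 without control library 1 and 0.36 against 0.32 without control library 2. They were 0.20 against 0.13 without tamoxifen library 1 and 0.43 against 0.30 without tamoxifen library 2. Under quantile normalization the order turned (0.05 for the large and -0.04 for the small subunit). The difference between subunits was not tested. In single libraries the small subunit median minus the large subunit median was -0.44 and -0.57 in control and -0.05 and -0.34 in tamoxifen libraries on the log2 scale of normalized counts, with both tamoxifen libraries nearer to zero. Members with a bacterial counterpart gave 11 that rose and 1 that fell of 48 (median 0.26), and members without one gave 6 and 2 of 30 (median 0.22). The shares that passed were 25% and 26.7%, also below the 58.9% of all genes tested.

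The 3 paralogs of a bacterial small subunit protein had unlike values. Mrps18a, whose protein sits in the large subunit, was at 822 and 1035 in control and 1078 and 1011 in tamoxifen libraries (log2 fold change 0.18, SE 0.19, adjusted p = 0.438). Mrps18c was at 366 and 360.5 against 404 and 364 (0.08, SE 0.23, adjusted p = 0.788), and under quantile normalization at -0.85 (adjusted p = 0.0177). Only Mrps18b of the 3 passed, which it did not under quantile normalization (0.23, adjusted p = 0.45), and the difference between paralogs was not tested. All 3 belong to the 11 members whose transcripts are covered over at least 50% by exons of other genes, of which 1 passed.

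Per kilobase of canonical transcript, the mean level of the members ran from 100.5 to 2439.9 normalized counts, a 24.3-fold range around a median of 536. Mrpl42 was highest, followed by Mrps21 (1984), Mrpl20 (1559.7), Mrpl53 (1381) and Mrpl28 (1378). Lowest were Mrps18c (100.5), Mrps34 (121), Mrps25 (122), Mrps28 (143) and Mrpl55 (159). These levels rest on annotated lengths, and long annotated ends lower them: Mrps25 is annotated at 6102 bases and Mrps21 at 555. Members covered over at least 50% by other genes had a median of 403 per kilobase and the others 536, and 4 of the lowest 10 were covered in this way.

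Across the libraries, members moved together within groups. Control library 2 exceeded control library 1 in 67 of 78 members (85.9%) and in 54.5% of all genes tested, with a median log2 difference of 0.21 against 0.05. Tamoxifen library 1 exceeded tamoxifen library 2 in 69 of 78 (88.5%) and in 58% of all genes, with a median of 0.15 against 0.08. Summed normalized counts of the members were 74797 and 85564 in control and 97607 and 87529 in tamoxifen libraries. The lower tamoxifen library was thus close to the higher control library, and the spread within the control group was of the same order as the difference between groups.

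As a share of all reads on genes, members took 0.146% and 0.167% in control and 0.254% and 0.244% in tamoxifen libraries, from 54607, 68364, 90060 and 121755 reads. Neither the shares nor the summed normalized counts overlapped between groups, but the relative difference was larger for the shares. The 2 views differ because summed normalized counts of all genes in tamoxifen libraries were 0.722 times those in control libraries. An exact two-sided permutation test of 2 against 2 libraries cannot go below p = 0.333, so no p is given for single sums or shares.

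**Figure D4:**
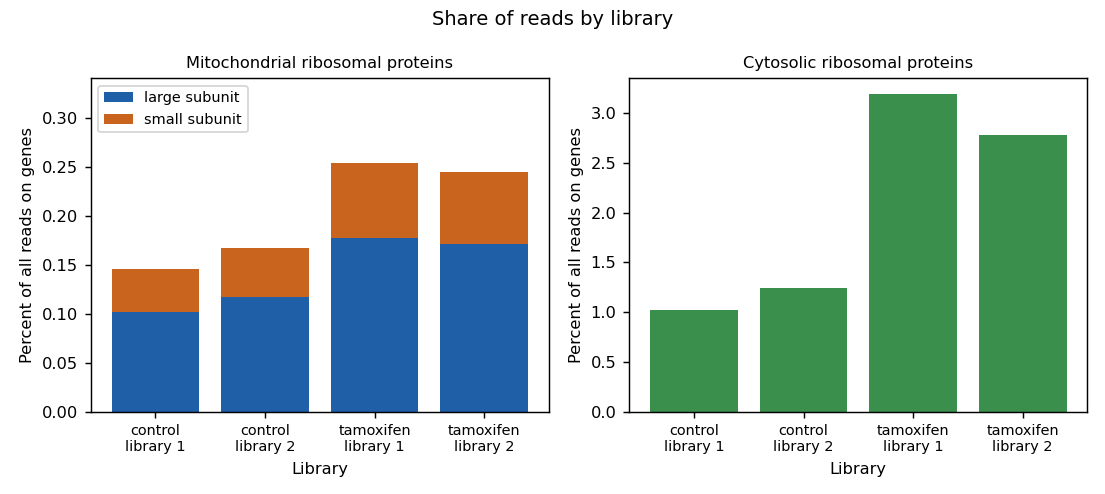
Percent of all reads on genes (y axes, from 0) that fell on mitochondrial ribosomal protein genes, stacked by subunit, and on cytosolic ribosomal protein genes, in each of the 4 libraries (x axis). Bars are single libraries without error. The mitochondrial share is 0.146% to 0.167% in control and 0.244% to 0.254% in tamoxifen libraries, and the cytosolic share 1.02% to 1.24% and 2.78% to 3.19%.

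Genes for the proteins of cytosolic ribosomes, which translate nuclear-encoded mRNAs, moved more. Of 90 tested, 76 rose and 0 fell (84.4%, median log2 fold change 0.93), against 33.4% of all genes that rose and 58.9% that passed. Past both thresholds were 37 of the 90, which is not above the 44.7% of all genes. The number that rose was 26 without tamoxifen library 1, 40 without tamoxifen library 2 and 47 without control library 1. The share of all genes that passed was also lower in these fits. Rpl4, the most abundant, was at 23879.9 and 28813 in control and 67955 and 56523 in tamoxifen libraries (log2 fold change 1.24, limma adjusted p = 0.0042). Their share of reads was 1.02% and 1.24% against 3.19% and 2.78%. On the log2 scale, the cytosolic median minus the mitochondrial median was 2.62 and 2.76 in control and 3.47 and 3.32 in tamoxifen libraries, so every tamoxifen library was above every control library. The medians of the 2 lists' log2 fold changes were 0.70 apart on the deposited scale. Rescaling libraries to equal totals or to an equal member level moves every gene alike, so the gap of 0.70 found there was fixed beforehand. DESeq2 and edgeR also scale each library by 1 factor, so their gap of 0.70 adds little. With 1 library left out the gap was 0.58 to 0.77, and under quantile normalization 1.43. Rpl10l, Rpl39l, Rps3a2 and Rps3a3, relatives of the main cytosolic genes, had the largest differences of that list (log2 fold changes of 7.58, 5.17, 3.83 and 7.04), and may share reads with near-identical copies.

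Subunits of the mitochondrial ribosome that carry other names gave similar values. Dap3, a GTP-binding small subunit protein also described in cell death, was at 2279 and 2353 in control and 3158 and 3012 in tamoxifen libraries and rose (log2 fold change 0.41, limma adjusted p = 0.0409). Ptcd3 was at 1939.5 and 1606 against 2925 and 2451 and rose (0.60, adjusted p = 0.0193). Chchd1 (0.38, adjusted p = 0.0988), Gadd45gip1 (0.56, 0.175) and Aurkaip1 (-0.19, 0.394) did not pass. Of these 5 genes, 2 rose and 0 fell (40% passed against 58.9% of all genes tested). Their median was 0.41, within the quartiles of the members.

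Assembly and rRNA modification factors of the mitochondrial ribosome moved in both directions, with 4 of 27 that rose and 5 that fell (median log2 fold change 0.04). Together 33.3% passed, against 58.9% of all genes tested. Tfb1m, which methylates the small subunit rRNA, was at 171 and 110.1 in control and 324 and 330.0 in tamoxifen libraries (1.25, limma adjusted p = 0.0133), and Rcc1l, an exchange factor-like assembly protein, rose by 0.73 (adjusted p = 0.029). Mtg2, a GTPase of large subunit assembly, was at 1046 and 1065 against 597 and 514 (-0.93, adjusted p = 0.00377), and Mettl17 of the small subunit at 1151 and 1569.5 against 712 and 849.7 (-0.79, adjusted p = 0.0139). The most abundant, Dhx30 (-0.16, adjusted p = 0.402) and Eral1 (-0.32, 0.142), did not pass.

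Among translation factors and mRNA partners, 2 of 19 rose and 4 fell (31.6% passed against 58.9% of all genes tested, median log2 fold change 0.05). Mtrf1l, a release factor that ends mitochondrial translation, was at 1181 and 1046 in control and 359 and 385 in tamoxifen libraries and fell by 1.58 on the log2 scale (limma adjusted p = 0.000341). Lrpprc, which stabilizes mitochondrial mRNAs, was at 2026 and 1786 against 4224 and 3745 and rose (1.06, adjusted p = 0.000821). Tsfm, an elongation factor, rose by 0.77 (adjusted p = 0.012), and Mtfmt, which formylates the initiator tRNA, fell by 0.63 (adjusted p = 0.0178). Oxa1l, which inserts the products into the membrane, was at 2753 and 3205 against 3081 and 2670.0 (-0.05, adjusted p = 0.806).

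Mitochondrial aminoacyl-tRNA synthetases, which charge the tRNAs, were split evenly, with 3 of 17 that rose and 3 that fell (median log2 fold change 0.20). Together 35.3% passed, against 58.9% of all genes tested. Those that rose included Ears2 (1.13, adjusted p = 0.0101) and Rars2 (0.74, 0.0092), and Hars2 fell from 2267 and 2359 to 1189 and 1199 normalized counts (-0.95, adjusted p = 0.00115). Of 10 genes of mitochondrial DNA transcription and replication, 2 rose and 1 fell (30% passed, median -0.11). Twnk, the helicase, rose (0.81, adjusted p = 0.00697), as did Tfam, which packages mitochondrial DNA, from 1208 and 1136 to 2105 and 1814 (0.74, adjusted p = 0.00595), and Polg, the polymerase, fell (-0.44, adjusted p = 0.0448).

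The tested mRNAs that these ribosomes translate were mostly within their spread. Of the 13 protein-coding genes of mitochondrial DNA, 9 were in the table used here and 7 were tested. Of these 7, 1 rose and 0 fell (14.3% passed against 58.9% of all genes tested, median log2 fold change 0.09). That gene, mt-Nd6, was at 16093 and 15909 in control and 31852 and 21791 in tamoxifen libraries (0.72, limma adjusted p = 0.0314). The most abundant, mt-Co1, was at 183988 and 179239.6 against 249418 and 146237, where both control libraries lay between the tamoxifen libraries (0.07, SE 0.49, adjusted p = 0.907). mt-Cytb (0.09, SE 0.43), mt-Nd5 (0.53, SE 0.33), mt-Nd1 (-0.30, SE 0.35) and mt-Nd2 (-0.39, SE 0.33) did not pass, and their standard errors exceeded those of all members but Mrps34. mt-Co2 and mt-Co3 were at no more than 5.48 normalized counts in any library and were not tested. Why they were so far below mt-Co1 in this table was not tested, so these values need not show their level in the cells. The 7 tested genes are only a part of the mitochondrial mRNAs.

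Among nuclear regulators of mitochondrial genes, Ppargc1a, Myc and Mycn rose by more than any member. The upper quartile over all genes tested, 1.68, also lay above the largest member difference of 1.41. Of the 11 listed, 4 rose and 2 fell (median log2 fold change 0.06). The share that passed was 54.5% and the share that rose 36.4%, near the 58.9% and 33.4% of all genes tested. Ppargc1a, a coactivator of mitochondrial biogenesis, was at 112 and 92.6 normalized counts in control and 591 and 1132 in tamoxifen libraries (log2 fold change 2.99, limma adjusted p = 0.000285). Myc was at 219 and 280.4 against 1480.5 and 1379.6 (2.52, adjusted p = 7.54e-05), Mycn at 652 and 613 against 2423 and 2058 (1.82, adjusted p = 0.000109), and Pprc1 at 1997 and 1872 against 5688 and 4625 (1.41, adjusted p = 0.000261). The groups did not overlap for these 4 genes. Yy1 fell (-0.57, adjusted p = 0.0194), as did Gabpb1 (-0.59, adjusted p = 0.0176), while Nrf1, which encodes nuclear respiratory factor 1, was at 2452 and 2549 against 2476 and 2349 (-0.05, adjusted p = 0.778) and Gabpa at 3754 and 3190.3 against 3702 and 3519.7 (0.06, adjusted p = 0.757). The larger differences of Myc and Mycn accompanied a median of 0.24 for the members, and a link between them was not tested.

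Head-to-head gene pairs gave a further view of single members. A protein-coding neighbor started within 1000 bases on the opposite strand for 14 of 78 members (17.9%), against 5.46% of 21757 protein-coding genes. Mrpl51 and Ncapd2, a condensin subunit of dividing cells, start 44 bases apart. Ncapd2 was at 1529 and 1859.9 normalized counts in control and 11887 and 11461 in tamoxifen libraries (log2 fold change 2.79, limma adjusted p = 1.56e-05), whereas Mrpl51 was at 1399.9 and 1686 against 1918 and 1780.0 (0.27, adjusted p = 0.204). Mrpl30 and Mitd1 start 61 bases apart, and Mitd1 fell (-1.29, adjusted p = 0.00239) while Mrpl30 did not pass (0.40, adjusted p = 0.0673). Mrpl43 and Twnk, the mitochondrial helicase, start 56 bases apart, with -0.10 (adjusted p = 0.717) for Mrpl43 and a rise for Twnk. Mrpl46 and Mrps11, both members, start 30 bases apart and had -0.04 and -0.03. Neighbors of one start region thus had like values in some pairs and unlike values in others, and the difference within a pair was not tested.

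How many members rose or fell depended on the scale. When library totals were made equal, 53 rose and 0 fell (67.9% of members passed against 58.5% of all genes), and the median log2 fold change was 0.71, while that of all genes went from 0.05 to 0.54. Under quantile normalization 8 rose and 18 fell (33.3% passed against 64%), with a median of -0.01 for members and -0.23 for all genes. Relative to the median of all genes, the members stood 0.19 higher on the deposited scale and 0.21 higher under quantile normalization. With equal totals, which move members and other genes alike, the distance was 0.17. That distance was 0.07 without the filter on low values and 0.27 with a filter at 100, and with 1 library left out it ran from 0.08 (control library 1) to 0.31 (tamoxifen library 2). Of the 17 that rose, 17 were called with equal totals and 7 under quantile normalization, and of the 3 that fell, 0 and 3. Mrpl45 and Mrps2 rose in the deposited scale and in all 15 alternatives, and Mrpl15 and Mrps22 in all 11 that kept the 4 libraries. Leaving out a library left 7 (control library 1), 12 (control library 2), 2 (tamoxifen library 1) and 3 (tamoxifen library 2) of the 17 rises, and 2, 1, 1 and 0 of the 3 falls. A smaller share of all genes passed too whenever a library was left out, so these losses need not be particular to the members. No call in any fit was made for 7 members.

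**Figure D5:**
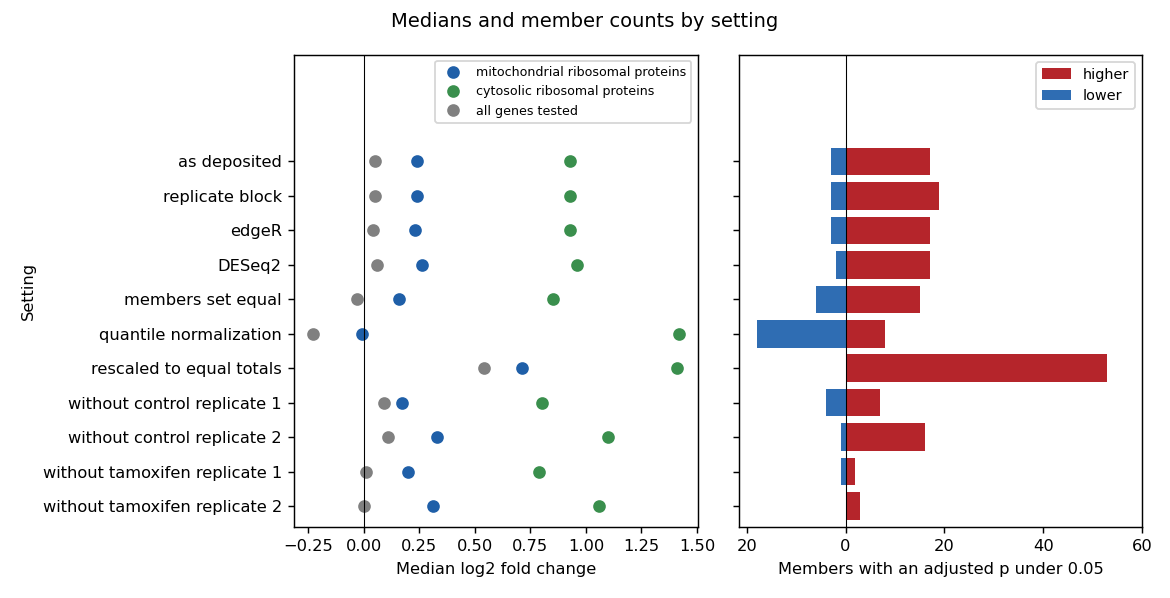
Left, median log2 fold change (x axis) of mitochondrial ribosomal protein genes, cytosolic ribosomal protein genes and all genes tested under the deposited scale and 10 alternatives (y axis). Right, number of members with an adjusted p under 0.05, higher drawn to the right of zero and lower to the left. The 3 medians shift together with equal totals, and the mitochondrial median stays between the other 2 in every row, while member counts run from 2 to 53 higher and from 0 to 18 lower.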

How the data were processed

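RNA-Seq was performed by the authors on CD31+CD45- cerebral cells, with 2 control and 2 tamoxifen libraries, each described as a pool of 3 mice. Per the labels and methods, reads were aligned to GRCm39 with STAR 2.7.10a and quantified per gene, and the submitters' processing notes name DESeq2 1.36.0. The deposited values are a signal in normalized counts per gene, gene counts divided by a size factor for each library (no raw counts were used here). Steps between low values gave whole reads for 100% of values within a tolerance of 0.01, so that 35387438 to 49799321 reads lay on genes, and 1 read was worth 0.7189 to 1.37 normalized counts. A figure legend of the study describes independent pools of 3 mice, whereas its methods give 3 mice for each group. Intervals cover the spread between these libraries only, which may therefore be technical.

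Values were tested as log2(normalized count + 1) with limma 3.58.1 (R 4.3.3; eBayes with trend) in the 4 libraries, keeping the 20485 genes whose mean reached 10, with Benjamini-Hochberg adjustment over all of them. A gene passed at an adjusted p under 0.05, and a size limit of 1 on the absolute log2 fold change served as a second count. Fold changes refer to this log2 scale. No p was computed over the members or any list. Members, lists and tests were chosen with earlier results of these data known. Named genes were the members at both ends of the ranking by change and by level per kilobase, paralogs, stalk proteins and members with other described roles. In other lists they were the largest changes and highest levels. Genes outside this rule, such as Nrf1, Gabpa, Gabpb1, Mrps5, Mrps7, Mrpl33, further members that passed and head-to-head pairs, were chosen after their values were seen. Transcript lengths, starts and overlaps were taken from GENCODE M39 on GRCm39, where 24451 of 24873 symbols matched. The fit was tested on simulated data. Alternatives were another pseudocount, filter, scaling and variance trend, a block on replicate number, count tests on recovered reads (edgeR 4.0.16, DESeq2 1.42.0), and each library left out, where the lone library was assumed to vary like the other group.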

Additional observations from a re-analysis of the deposited data

How the results depend on the processing

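Main counts were 17 members higher, 3 lower and 3 past both thresholds, with a median of 0.24. The number higher was 6 without a variance trend, 8 under quantile normalization and 53 with equal totals. In the main fit 25.6% of members passed against 58.9% of all genes, and without a trend 7.69% against 49.7%. Under quantile normalization the shares were 33.3% and 64%, with equal totals 67.9% and 58.5%, and at an equal member level 26.9% and 57.6%. The number lower was 0 without a trend, 18 under quantile normalization, 0 with equal totals and 6 with libraries set to an equal member level, a scaling chosen after seeing the data. With 1 library left out, counts ran from 2 to 16 higher, from 0 to 4 lower and from 1 to 4 past both thresholds, with the lowest number higher without tamoxifen library 1. The share of all genes that passed was lower with a library left out as well. Past both thresholds were 18 with equal totals. The median was 0.71 with equal totals (0.66 for the large and 0.80 for the small subunit) and -0.01 under quantile normalization (0.05 for the large and -0.04 for the small subunit). Mgp passed with -0.47 (limma adjusted p = 0.0376) at an equal member level and with -0.65 (0.0128) under quantile normalization, but did not pass with 0.08 (0.712) with equal totals, and ran from -0.54 to -0.24 with 1 library left out (lowest adjusted p 0.0857). Among genes of the naming rule called on either scale compared, signs turned for Oxa1l (0.42) and Polg (0.03) with equal totals, and for Lars2 (0.63), mt-Nd1 (0.89), Mrps36 (-0.20) and Mrps18c (-0.85) under quantile normalization. Counting uncalled values too, 18 of 78 members turned sign with equal totals, 18 under quantile normalization (1 of them, Mrps36, called on the deposited scale), 8 at an equal member level and 2 to 9 with 1 library left out. The cause of these shifts was not tested. Other pseudocounts, filters, edgeR and DESeq2 left each of these member counts within 1.5 times.

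With the replicate number as a block, 19 members rose, 3 fell (28.2% passed against 61.7% of all genes) and the median was 0.24. Same-numbered libraries deviated with a correlation of 0.0251 across genes, so the numbers were not read as pairs.

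Each member had at least 72 reads in every library, and 2 libraries per group limit the precision of each test.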

Other observations

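Pseudogene rows of the family were listed apart from the members. Mrpl48-ps, listed as a pseudogene of Mrpl48, was at 8.22 and 6.26 normalized counts in control and 66.1 and 71.9 in tamoxifen libraries (log2 fold change 3.10, SE 0.55, limma adjusted p = 0.00204), while Mrpl48 fell from 1159 and 1526 to 761 and 887. Both tamoxifen libraries of the pseudogene were above both control libraries, at levels far under those of Mrpl48, and reads of near-identical copies may be split between such rows. Mrpl23-ps1 was at 11 and 16.3 against 7.59 and 8.63 (-0.66, adjusted p = 0.37). Mrps36-ps1, Mrps36-ps2 and Mrpl27-ps were under a mean of 10 normalized counts and were not tested.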
